A study of Homo sapiens with 12 samples.

Results

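The nuclear genes of the mitochondrial respiratory chain and of the ATP synthase were followed in the human airway cell line Beas-2b, immortalised bronchial epithelium, with and without the adenine nucleotide translocase ANT1 and with and without bleomycin. They were chosen by annotation and name: protein-coding genes whose symbols are those of the subunits of complex I (NDUFA, NDUFB, NDUFC, NDUFS and NDUFV genes), complex II (SDHA to SDHD), complex III (UQCR genes and CYC1), complex IV (nuclear COX genes) and the ATP synthase, here also called complex V (ATP5F1, ATP5M and ATP5P genes). This gave 86 genes of the 58735 in the table, and 81 of them passed the filter on low counts that left 16702 genes for testing. All 36 complex I genes, all 4 of complex II and all 10 of complex III were tested, as were 14 of 18 of complex IV (NDUFA4 counted there) and 17 of 18 of the ATP synthase. Expression of a gene had no part in this rule, but the set was chosen with earlier results of these data known.

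Of the 4 groups, the first held ANT1 knockout cells (CRISPR knockout of SLC25A4, the gene of ANT1) given bleomycin and the second the same knockout cells in control medium. The others held wild type cells with bleomycin and wild type cells in control medium. Bleomycin, a drug that breaks DNA, was used at 10 mg/ml over 2 days to induce senescence, per the labels. Each group had 3 libraries of poly(A)-selected RNA, called biological replicates in the design text. The number of CRISPR clones behind the knockout libraries is not stated in the sources used here. An effect of the knockout and one of a single clone cannot be told apart.

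Complexes I and II pass electrons from NADH and succinate to ubiquinone, complex III passes them to cytochrome c, and complex IV passes them to oxygen. Complexes I, III and IV pump protons as they do so, and the ATP synthase lets the protons flow back through a rotor of c subunits that drives ATP formation in its F1 head. ANT1 carries the ATP out of the matrix in exchange for ADP. Apart from a small set of core subunits made from the mitochondrial chromosome, all subunits are encoded in the nucleus, and promoters of many of them are known to carry sites for the factors NRF1, the ETS factor GABP and YY1.

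Promoter sequences are shown for 4 genes whose transcripts differed between bleomycin and control medium in the results below: NDUFV3, which rose, and ATP5F1A, ATP5F1C and ATP5MC1, which fell. RefSeq windows on GRCh38.p14, from 250 bases before to 50 after a transcript start, were present for 69 of the 86 genes, with 82 windows in all. ATP5F1B had no entry. Each line gives the 250 bases before the start, 5′ to 3′ on the gene's own strand, and capitals mark matches on either strand to the NRF1 motif (GCGCA, any 1 base, GCGC), the ETS motif CCGGAAG and the CCAAT box.
NDUFV3, chr21:42893059-42893308, plus strand: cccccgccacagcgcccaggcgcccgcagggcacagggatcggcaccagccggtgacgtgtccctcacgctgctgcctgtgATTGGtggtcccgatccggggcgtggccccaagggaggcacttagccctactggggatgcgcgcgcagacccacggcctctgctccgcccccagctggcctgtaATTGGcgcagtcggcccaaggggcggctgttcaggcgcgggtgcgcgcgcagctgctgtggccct
ATP5F1A, chr18:46098297-46098546, minus strand: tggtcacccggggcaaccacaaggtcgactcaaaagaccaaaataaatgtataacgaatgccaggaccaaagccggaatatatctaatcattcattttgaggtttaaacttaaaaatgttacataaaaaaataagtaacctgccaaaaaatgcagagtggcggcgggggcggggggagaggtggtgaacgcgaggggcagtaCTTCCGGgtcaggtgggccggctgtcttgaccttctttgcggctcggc
ATP5F1C, chr10:7787927-7788176, plus strand: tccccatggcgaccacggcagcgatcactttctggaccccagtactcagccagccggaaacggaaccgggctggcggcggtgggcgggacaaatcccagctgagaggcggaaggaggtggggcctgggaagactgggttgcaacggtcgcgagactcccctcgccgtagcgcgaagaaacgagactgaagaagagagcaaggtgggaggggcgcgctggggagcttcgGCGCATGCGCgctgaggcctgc
ATP5MC1, chr17:48892537-48892786, plus strand: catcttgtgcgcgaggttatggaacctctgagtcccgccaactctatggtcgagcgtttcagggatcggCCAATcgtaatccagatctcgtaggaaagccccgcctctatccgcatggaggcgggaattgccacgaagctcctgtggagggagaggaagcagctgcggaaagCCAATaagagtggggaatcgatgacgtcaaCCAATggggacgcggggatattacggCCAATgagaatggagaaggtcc

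The 4 sequences differ in the motifs they hold. NDUFV3 had 2 CCAAT boxes (written ATTGG on this strand) and no match to the NRF1 or ETS letters. ATP5F1A had 1 ETS match in the window shown, which was picked for it, and none in its other RefSeq window, which starts farther upstream. ATP5F1C had 1 NRF1 match and ATP5MC1 had 4 CCAAT boxes. Over whole windows of 300 bases and both strands, the NRF1 letters were found for 24.6% of the 69 genes with a window, and for 9.67% of 15843 protein-coding genes with one. The ETS letters were found for 30.4% against 16.5%, and a YY1 motif spelled AANATGGCG for 24.6% against 5.59%. The SP1 motif GGGCGG was found for 62.3% against 64.3%, and CCAAT for 36.2% against 42.1%. None of the 5 motifs contains another. These are matches of letters, not measured binding sites. The RefSeq starts used for NDUFV3 and for the ATP5F1A window shown lie inside those genes, downstream of the starts that the annotation of the count table gives. The ATP5F1A window not shown starts nearer to the annotated start of that gene.

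Transcript levels were compared per length in the deposited FPKM values (fragments per kilobase of exon, scaled by library size). Over the 12 libraries, mean FPKM of the 81 genes ran from 0.354 to 232 with a median of 23.6, beside a median of 3.82 over all tested genes. ATP5F1B, the catalytic beta subunit of the F1 head, was highest at 232 FPKM. It was followed by NDUFS5, an accessory subunit of complex I, at 208, by COX8A, a small subunit of complex IV, at 182, and by NDUFB7, of the membrane arm of complex I, at 112. The first 2 were not separated beyond their spread, since the libraries of ATP5F1B ran from 191 to 310 FPKM and those of NDUFS5 from 180 to 256. In complex II, SDHA, the flavin-carrying catalytic subunit, had 52.6 FPKM, the iron-sulfur subunit SDHB 24.7, and the membrane anchors SDHD and SDHC 13.4 and 5.84.

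**Figure D1:**
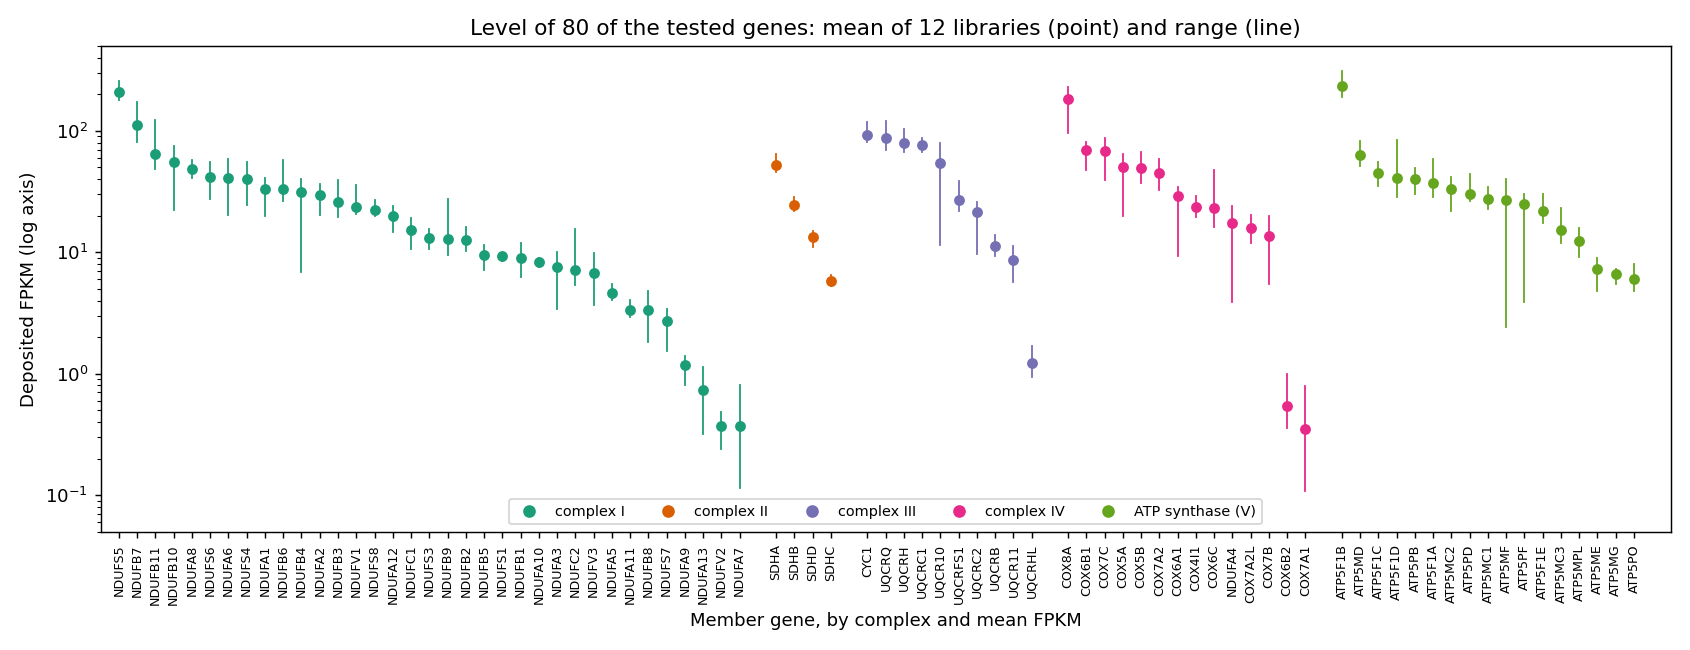
Mean deposited FPKM (points, log axis) and range over 12 libraries (lines) of 80 of the tested genes, ordered by complex and level. ATP5F1B, NDUFS5, COX8A and NDUFB7 lie above 100 FPKM, and COX7A1, NDUFA7, NDUFV2, COX6B2 and NDUFA13 lie below 1 FPKM.

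Several low values belong to genes that share exon bases with other annotated genes. NDUFV2 and NDUFA7, subunits of complex I, had 0.374 and 0.369 FPKM, and 28.4% and 32.3% of their exon bases lay under another annotated gene on the same strand. NDUFA13 had 0.727 FPKM with 21.0% of its bases shared, and NDUFB8 had 3.34 FPKM with 33.8% shared. ATP5ME shared 61.6% of its bases with MYL5 on the other strand. Whether counting used strand, and how reads on shared bases were treated, was not stated in the sources used, so the levels of these genes are uncertain. In addition, 45 of the 86 genes have pseudogenes named after them in GENCODE 29 (159 in all). For SDHA and COX6A1 the pseudogenes held 4.42% and 7.03% as many counts as the gene, and for NDUFV2 121%, so levels of such genes are uncertain. UQCRHL is a near copy of UQCRH and is uncertain for the same reason.

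Several isoforms and copies of subunits were low or at 0 counts. COX4I2, COX6A2 and COX7B2 had 0 counts in every library, COX8C had 1 count in all and ATP5MGL, a copy of ATP5MG, had 6. A count of 0 allows up to 3 counts, or 0.137 to 0.190 CPM (a gene's counts divided by the library's total in megacounts) over the 12 libraries, and covers counting error only. Their widely expressed partners were well measured, with COX4I1 at 23.6 FPKM, COX6A1 at 29.1, COX7B at 13.6 and COX8A at 182. COX7A1, known from heart and skeletal muscle, had 0.354 FPKM beside 44.7 for COX7A2. COX6B2, known from testis, had 0.545 FPKM beside 69.2 for COX6B1. Of the 3 genes for the identical c subunit of the ATP synthase, ATP5MC2 had 33.3 FPKM, ATP5MC1 27.5 and ATP5MC3 15.4.

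Library totals ran from 15.8 to 21.9 megacounts, and the 86 genes took 0.599% to 0.710% of them. SLC25A4 had 4.09 to 6.97 CPM in the 6 knockout libraries, against 16.1 to 27.5 CPM in the 6 wild type libraries. Its transcript followed the labels (log2 difference, knockout over wild type, -2.26 in bleomycin and -1.78 in control medium, edgeR adjusted p = 0.000904 and 0.0111). Epithelial markers summed to 1435 to 1790 CPM over the libraries, with 8 of 9 tested, and KRT7, KRT8 and KRT18 made up most of each sum. KRT5, TP63, EPCAM and CDH1 had at most 2.96 CPM in any library. KRT7 and KRT19 were higher in every bleomycin library than in any control library, and KRT8, KRT18 and ELF3 were lower. ELF3 had 0.825 to 1.39 CPM with bleomycin, against 26.4 to 38.4 CPM in control medium. Of the fibroblast markers 3 of 7 were tested, with LUM at 0 counts, and they summed to 488 to 710 CPM in knockout cells with bleomycin, 603 to 3527 CPM in knockout cells in control medium, 585 to 620 CPM in wild type cells with bleomycin and 577 to 1251 CPM in wild type cells in control medium. The 3527 was replicate 2 of knockout control, where COL1A1 had 3474 CPM, beside 556 and 707 CPM in replicates 1 and 3. Leukocyte markers, 1 of 5 tested, summed to 2.06 to 5.69 CPM in the bleomycin libraries and 19.5 to 41.0 CPM in the control libraries. The part of these markers in the results was not tested. In bulk RNA, fewer cells of a type and less RNA per cell cannot be told apart.

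1 library stood apart, and the results that it moves are given below with and without it. In knockout control replicate 2, the mitochondrial chromosome took 0.364% of counts, against 3.86% to 5.13% in the other 11 libraries. Of the 81 genes, 17 lay more than 1 log2 unit from their mean over the other libraries (12 lower and 5 higher), which is 21.0% of them beside 14.4% of all tested genes in that library. No other library had any such gene, although each of those 11 enters the mean it is set against. The deviations ran through all complexes except II. The log2 difference of replicate 2 from the mean of replicates 1 and 3 was -3.72 for ATP5MF, subunit f of the ATP synthase membrane part. It was -2.64 for ATP5PF of the peripheral stalk, -2.26 for NDUFB4 of the complex I membrane arm and -2.20 for UQCR10, a small subunit of complex III. On the higher side NDUFC2 was at 1.31, NDUFB9 at 1.14 and ATP5F1D at 1.09. Across the 81 genes the difference had a Spearman rho of 0.132 with transcript length and of 0.0123 with GC content, given as a description across genes that share a library. What set this library apart was not tested.

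**Figure D2:**
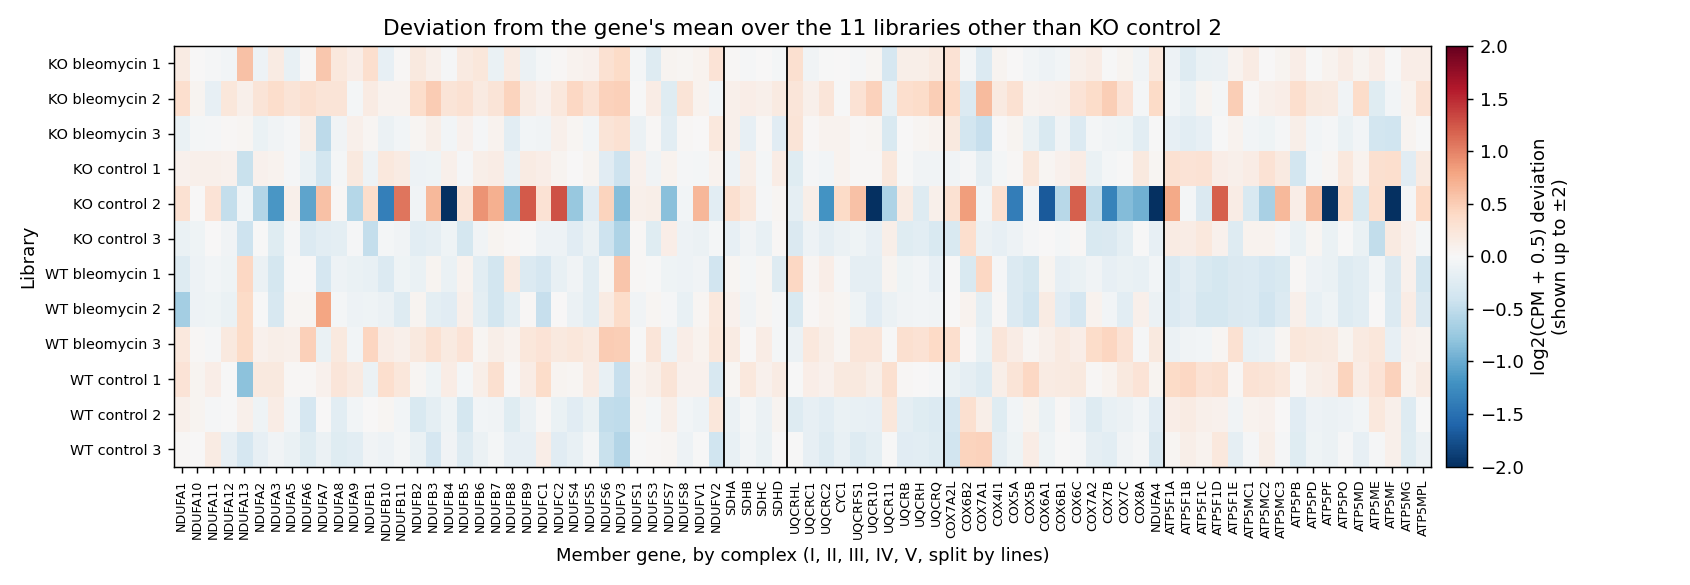
Deviation of log2(CPM + 0.5) of 80 of the genes (columns) in each library (rows) from the gene's mean over the 11 libraries other than knockout control replicate 2, coloured up to 2 units either way. Knockout control 2 holds all 17 deviations over 1 unit, and no gene passes 1 unit in another library.

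The first question was how bleomycin changed these transcripts in knockout cells. In ANT1 knockout cells, 7 of the 81 genes rose and 4 fell with bleomycin at an adjusted p under 0.05 (edgeR's quasi-likelihood test over all tested genes). That is 13.6%, beside 43.2% of all tested genes (22.5% higher and 20.7% lower). The median absolute log2 fold change was 0.22 over the respiratory genes and 0.42 over all tested genes, while the median standard error (SE) was 0.17 and 0.18. The signed median was 0.12 over the respiratory genes and 0.00 over all tested genes. With knockout control replicate 2 left out, 12 rose and 5 fell, or 21.0% beside 48.4% of all genes tested (25.6% higher and 22.8% lower), and the signed medians were 0.13 and 0.03.

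In wild type cells, 4 of the 81 genes rose and 5 fell with bleomycin. That is 11.1%, beside 43.5% of all tested genes (23.9% higher and 19.6% lower). The median absolute log2 fold change was 0.17 over the respiratory genes and 0.41 over all tested genes. The CPM values of the bleomycin and control groups did not overlap for 19 genes (23.5%) in knockout cells, beside 51.3% of all tested genes, and for 17 (21.0%) in wild type cells, beside 61.3%. Knockout control replicate 2 is among the libraries behind the overlap count of 19 in knockout cells. It is in neither wild type group, but it shares the fit. Without it the spread was estimated anew and 17204 rather than 16702 genes were tested. In that fit 9 rose and 11 fell in wild type cells, or 24.7% beside 56.6% (29.8% higher and 26.8% lower). With all libraries, the genes called in both genotypes were NDUFV3, which rose, and ATP5F1A and ATP5F1B, which fell. Without that library, 6 rose in both (ATP5PB, COX7A2L, NDUFA13, NDUFB5, NDUFS6 and NDUFV3) and 4 fell in both (ATP5F1A, ATP5F1B, ATP5F1C and ATP5MF). The 2 comparisons share no library.

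**Figure D3:**
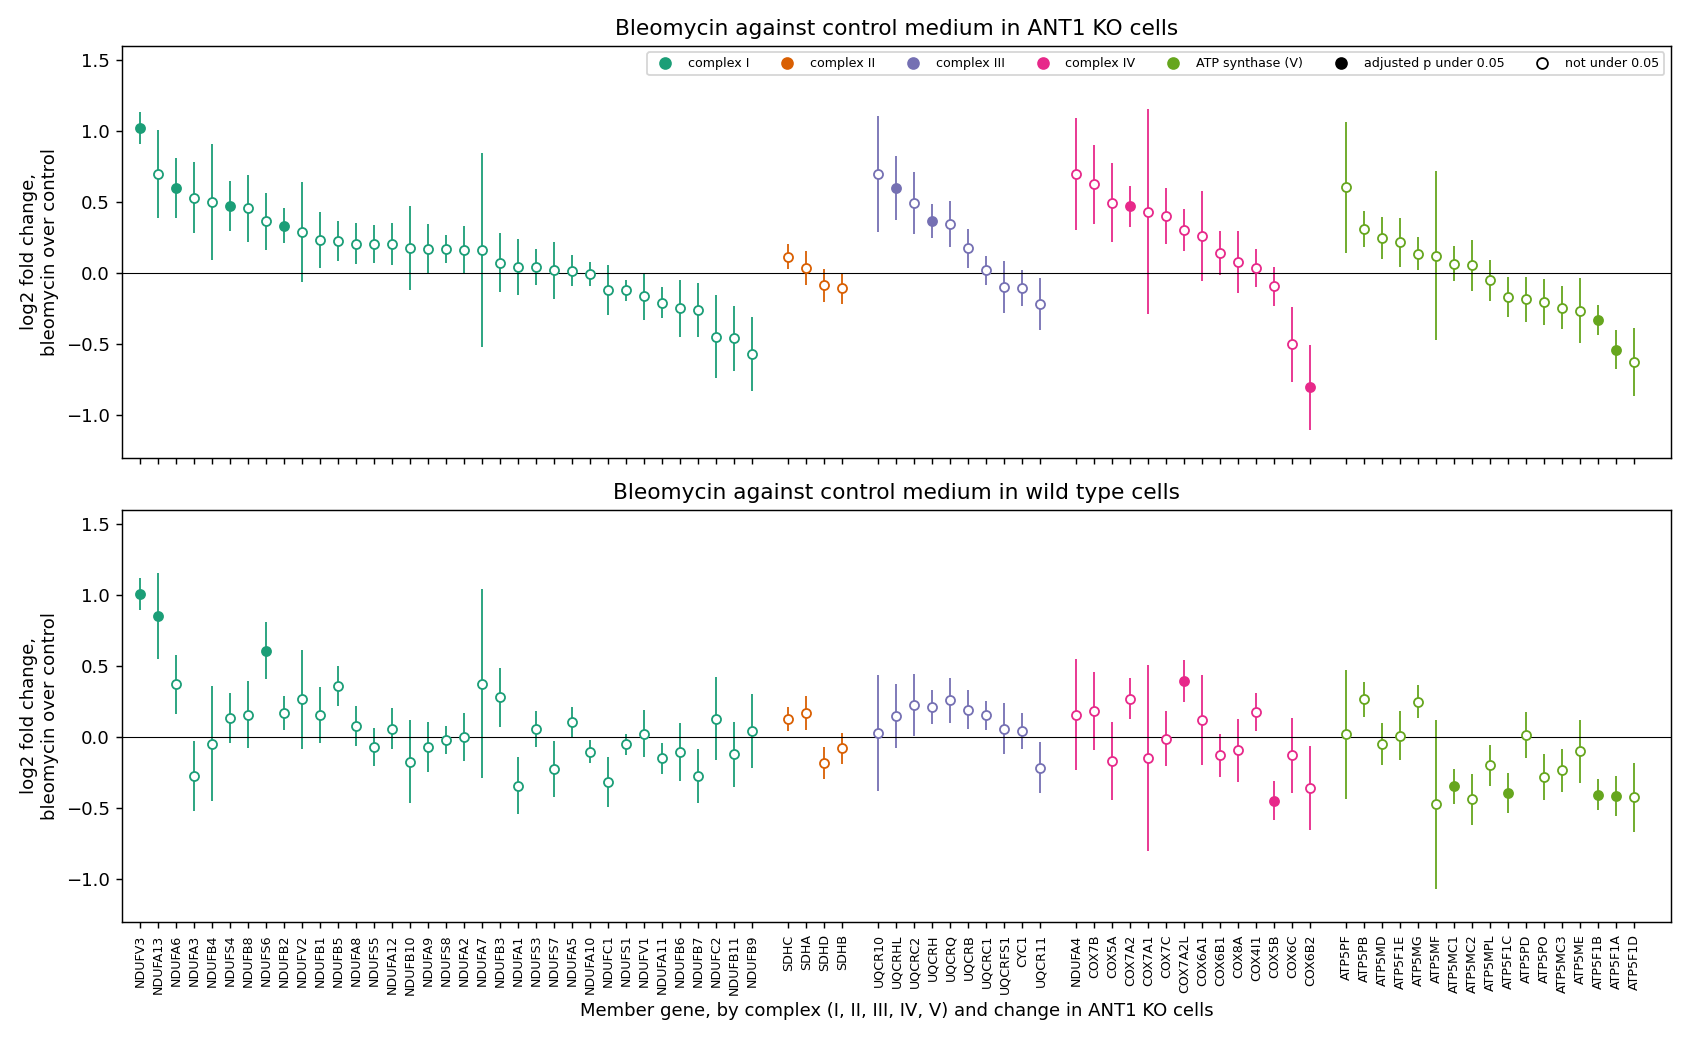
Log2 fold change of bleomycin over control medium with its SE for 80 of the genes, in knockout cells (top) and wild type cells (bottom), ordered by complex and by the change in knockout cells. Filled points have an adjusted p under 0.05, with 7 up and 3 down in knockout cells and 4 up and 5 down in wild type cells, and NDUFV3 is highest in both.

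NDUFV3, an accessory subunit at the NADH-oxidising tip of complex I, changed most. It lies at chr21:42879644-42913304 (GRCh38, plus strand) and shares no exon bases with other genes. It had 55.5, 59.9 and 52.8 CPM in knockout cells with bleomycin, against 31.8, 23.5 and 27.5 CPM in knockout cells in control medium. Its values in wild type cells were 63.2, 55.4 and 60.4 CPM with bleomycin, against 30.9, 29.7 and 28.3 CPM in control medium. All 6 bleomycin libraries lay above all 6 control libraries. The rise was 2.03-fold in knockout cells (log2 1.02, SE 0.11, edgeR adjusted p = 1.12e-05) and 2.01-fold in wild type cells (log2 1.01, SE 0.11, adjusted p = 9.37e-06). The call held when any 1 of the 12 libraries was left out, with adjusted p up to 0.000124 and 0.000136. No other gene of the set reached a log2 change of 1 in either comparison.

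The other complex I accessory subunits called were smaller in change and depended on single libraries. NDUFS6, which helps attach the NADH-oxidising module, had 58.5, 64.5 and 81.4 CPM in wild type cells with bleomycin, against 51.5, 40.5 and 42.1 CPM in control medium, with no overlap (log2 0.61, SE 0.20, edgeR adjusted p = 0.0248). The call was lost without wild type bleomycin replicate 3 (0.113), control replicate 2 (0.0913) or control replicate 3 (0.0826). In knockout cells NDUFS6 had 70.5, 79.2 and 68.7 CPM with bleomycin, against 48.6, 78.4 and 42.8 CPM in control medium, where replicate 2 overlapped the bleomycin libraries (log2 0.36, SE 0.20, adjusted p = 0.158). Without that library the log2 change was 0.67 (SE 0.14, adjusted p = 0.001).

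NDUFA6, which binds an acyl carrier protein, had 60.1, 75.3 and 65.5 CPM in knockout cells with bleomycin, against 54.5, 28.7 and 49.4 CPM in control medium, and the lowest of these was replicate 2 (log2 0.60, SE 0.21, edgeR adjusted p = 0.034). Without replicate 2 the log2 change was 0.36 and the adjusted p 0.0722. Leaving out knockout bleomycin replicate 2 or 3 gave 0.121 or 0.0651. NDUFS4, a subunit of the NADH-oxidising module known from Leigh syndrome, had 51.5, 65.3 and 50.2 CPM with bleomycin, against 49.5, 28.7 and 42.1 CPM in knockout control medium. Its groups barely parted (log2 0.47, SE 0.18, adjusted p = 0.0456), and of 12 refits with 1 library left out the call held in 2, those without knockout control replicate 1 or wild type bleomycin replicate 3 (0.0884 without knockout control replicate 2, at a log2 change of 0.28). In wild type cells the log2 changes of these genes were 0.37 (NDUFA6, adjusted p = 0.168) and 0.13 (NDUFS4, 0.581).

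NDUFB2, of the membrane arm, rose in knockout cells, with 65.1, 72.7 and 58.6 CPM with bleomycin, against 52.6, 54.3 and 48.7 CPM in control medium (log2 0.34, SE 0.12, edgeR adjusted p = 0.0378). It kept its call without replicate 2 of knockout control (0.0134) but not without knockout bleomycin replicate 1 (0.0812) or 2 (0.163), knockout control replicate 1 (0.0637) or 3 (0.111), or wild type control replicate 3 (0.0548). NDUFA13, known also as GRIM-19, was at 2.68, 2.64 and 2.62 CPM in wild type cells with bleomycin, against 0.865, 2.09 and 1.41 CPM in control medium (log2 0.85, SE 0.30, adjusted p = 0.0349). Those are low counts of a gene with shared exons, and the call was kept in 7 of 12 refits. It was lost without any 1 wild type bleomycin library (0.0705 to 0.0783), control replicate 1 (0.126) or control replicate 3 (0.0901).

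Of the 29 accessory subunits of complex I as a group, 4 rose and 0 fell in knockout cells, and 3 rose and 0 fell in wild type cells (edgeR). Over all tested genes, 22.5% rose and 20.7% fell in knockout cells, and 23.9% rose and 19.6% fell in wild type cells. The median log2 change of the 29 was 0.18 in knockout and 0.06 in wild type cells. Without knockout control replicate 2, 7 rose in knockout cells, beside 25.6% of all tested genes, and 5 in wild type cells, beside 29.8%. In that fit 0 fell in either genotype, beside 22.8% and 26.8%.

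Complex II gave no call in either genotype with all libraries. SDHA had 441, 464 and 465 CPM in knockout cells with bleomycin, against 403, 544 and 389 CPM in control medium. Wild type libraries had 445, 459 and 486 CPM with bleomycin, against 447, 398 and 391 CPM in control medium. The groups overlapped in both genotypes (log2 0.04, SE 0.12, edgeR adjusted p = 0.83 in knockout cells; log2 0.17, SE 0.12, adjusted p = 0.276 in wild type cells). With knockout control replicate 2 left out, the 544, SDHA rose by log2 0.20 (SE 0.08, adjusted p = 0.0424) in knockout cells. SDHB, SDHC and SDHD had log2 changes of -0.11, 0.12 and -0.09 in knockout cells and of -0.08, 0.13 and -0.18 in wild type cells, and their adjusted p ran from 0.226 to 0.596.

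In complex III, 2 of 10 genes were called in knockout cells, both higher, and 0 were called in wild type cells. The share called over all tested genes was 43.2% in knockout and 43.5% in wild type cells. UQCRH, the hinge protein near cytochrome c1, had 124, 147 and 117 CPM in knockout cells with bleomycin, against 108, 95.3 and 97.7 CPM in control medium, with no overlap (log2 0.37, SE 0.12, edgeR adjusted p = 0.0255). The call was lost without knockout bleomycin replicate 2 (0.132) or control replicate 3 (0.066). Wild type libraries had 110, 109 and 138 CPM with bleomycin, against 114, 96.3 and 98.5 CPM in control medium, and these overlapped (log2 0.21, SE 0.12, adjusted p = 0.18). Its copy UQCRHL had 3.43, 3.24 and 3.26 CPM in knockout cells with bleomycin, against 2.18, 2.30 and 2.08 CPM in control medium (log2 0.60, SE 0.23, adjusted p = 0.0488), and held its call in 2 of 12 refits, those without wild type bleomycin replicate 1 or 2 (adjusted p up to 0.117 in the others). The complex had a median log2 change of 0.26 in knockout and 0.15 in wild type cells. With knockout control replicate 2 left out, UQCRH rose and UQCR11, a small subunit, fell in knockout cells, beside 48.4% of all tested genes called. In wild type cells UQCRC2, a core protein, then rose, beside 56.6%. With all libraries, the abundant CYC1, cytochrome c1, and UQCRQ did not pass, with log2 changes of -0.10 (adjusted p = 0.534) and 0.35 (0.0984) in knockout cells and 0.04 (0.814) and 0.26 (0.214) in wild type cells.

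In complex IV, 1 gene rose and 1 fell of 14 in each genotype, and they were 4 different genes. The share called over all tested genes was 43.2% in knockout and 43.5% in wild type cells. COX7A2 had 97.7, 113 and 85.0 CPM in knockout cells with bleomycin, against 80.2, 62.4 and 71.3 CPM in control medium (log2 0.47, SE 0.14, edgeR adjusted p = 0.0174). It kept its call in 11 of 12 refits, the exception being the one without knockout bleomycin replicate 2 (0.0924). The wild type libraries held 83.3, 92.2 and 114 CPM with bleomycin, against 89.0, 73.1 and 77.7 CPM in control medium (log2 0.27, adjusted p = 0.143). COX6B2 had 1.84, 1.49 and 1.36 CPM in knockout cells with bleomycin, against 1.87, 3.79 and 2.51 CPM in control medium (log2 -0.80, SE 0.30, adjusted p = 0.0449), where replicate 2 was highest. Without replicate 2 its log2 change was -0.50 (adjusted p = 0.175), and the call held in 2 of 12 refits, those without knockout control replicate 1 or wild type control replicate 1.

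COX7A2L, a factor that joins complexes III and IV into supercomplexes, had 86.1, 87.1 and 110 CPM in wild type cells with bleomycin, against 79.4, 68.7 and 66.7 CPM in control medium, with no overlap (log2 0.40, SE 0.15, edgeR adjusted p = 0.0429). In knockout cells it had 106, 115 and 99.1 CPM with bleomycin, against 82.2, 107 and 70.3 CPM in control medium (log2 0.30, SE 0.15, adjusted p = 0.112). The knockout difference without replicate 2, the 107, was log2 0.48 (SE 0.11, adjusted p = 0.00171). The wild type call held in 5 of 12 refits. It was lost without wild type bleomycin replicate 2 (0.0503) or 3 (0.192), wild type control replicate 2 (0.126) or 3 (0.14), or any 1 knockout bleomycin library (0.0501 to 0.0589). COX5B, a zinc-binding subunit, had 55.7, 53.9 and 73.4 CPM in wild type cells with bleomycin, against 95.8, 74.6 and 79.4 CPM in control medium, again without overlap (log2 -0.45, SE 0.14, adjusted p = 0.0167). Its call was lost without wild type bleomycin replicate 1 (0.0725) or 2 (0.0791) or control replicate 1 (0.0786). In knockout cells COX5B had a log2 change of -0.09 (adjusted p = 0.614).

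NDUFA4, once assigned to complex I and now to complex IV, had 77.4, 86.8 and 66.3 CPM in knockout cells with bleomycin, against 68.3, 13.998 and 59.3 CPM in control medium. Its log2 change of 0.70 (SE 0.39, edgeR adjusted p = 0.172) rested on replicate 2, and without it was 0.26 (adjusted p = 0.116). In wild type cells it was 0.16 (adjusted p = 0.777).

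All ATP synthase genes that passed with all libraries fell. In knockout cells 0 of its 17 genes rose and 2 fell, and in wild type cells 0 rose and 4 fell. Over all tested genes, 22.5% rose and 20.7% fell in knockout cells, and 23.9% rose and 19.6% fell in wild type cells. Without knockout control replicate 2 the counts were 1 rising and 4 falling in knockout cells, and 2 rising and 8 falling in wild type cells. The shares over all tested genes were then 25.6% higher and 22.8% lower in knockout cells, and 29.8% and 26.8% in wild type cells. The median log2 change of the ATP synthase genes, with all libraries, was -0.05 in knockout and -0.23 in wild type cells. With all libraries, the genes that fell were subunits of the F1 head and its central stalk (2 of 5 fell in knockout cells, 3 of 5 in wild type cells) and the c ring (0 of 3 in knockout cells, 1 of 3 in wild type cells).

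ATP5F1A, the alpha subunit of F1 (chr18:46080248-46104334, minus strand), had 356, 367 and 341 CPM in knockout cells with bleomycin, against 471, 645 and 429 CPM in control medium. Its values in wild type cells were 314, 317 and 352 CPM with bleomycin, against 498, 420 and 392 CPM in control medium. All 6 bleomycin libraries lay below all 6 control libraries. It was 1.45-fold lower in knockout cells (log2 -0.54, SE 0.14, edgeR adjusted p = 0.0072) and 1.33-fold lower in wild type cells (log2 -0.41, SE 0.14, adjusted p = 0.028). The knockout call held in 12 of 12 refits, and without replicate 2, the 645, the log2 change was -0.35 (adjusted p = 0.00381). The wild type call was lost without wild type bleomycin replicate 1 (0.0888) or 2 (0.081) or control replicate 1 (0.107).

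ATP5F1B, the beta subunit that forms ATP (chr12:56638175-56646068, minus strand), had 451, 490 and 465 CPM in knockout cells with bleomycin, against 648, 523 and 596 CPM in control medium. The wild type libraries held 464, 462 and 512 CPM with bleomycin, against 721, 601 and 584 CPM in control medium. The 6 bleomycin libraries again lay below all 6 control libraries. ATP5F1B was 1.26-fold lower in knockout cells (log2 -0.33, SE 0.11, edgeR adjusted p = 0.0245) and 1.32-fold lower in wild type cells (log2 -0.41, SE 0.11, adjusted p = 0.00763). The wild type call held in 12 of 12 refits. The knockout call was lost without bleomycin replicate 1 (0.0823) or 3 (0.0752) or control replicate 1 (0.094) or 3 (0.0546), and without control replicate 2 its adjusted p was 0.000823.

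ATP5F1C, the gamma subunit that turns inside the head, had 85.5, 83.2 and 103 CPM in wild type cells with bleomycin, against 130, 114 and 112 CPM in control medium, with no overlap (log2 -0.39, SE 0.14, edgeR adjusted p = 0.0383). The call held in 5 of 12 refits. It was lost without wild type bleomycin replicate 1 (0.118) or 2 (0.137), any 1 wild type control library (0.0541 to 0.127), or knockout bleomycin replicate 1 (0.051) or 3 (0.0538). In knockout cells it had 96.9, 110 and 94.4 CPM with bleomycin, against 129, 86.4 and 123 CPM in control medium, where replicate 2 lay below the bleomycin libraries (log2 -0.17, SE 0.14, adjusted p = 0.359). Without that library the log2 change was -0.33 (SE 0.09, adjusted p = 0.00571). ATP5F1D, the delta subunit, did not pass with all libraries (log2 -0.63, SE 0.24, adjusted p = 0.0527 in knockout cells; log2 -0.42, SE 0.24, adjusted p = 0.178 in wild type cells). Its knockout control replicate 2 had 190 CPM beside 90.9 and 87.9 in the other replicates of that group, and without it the log2 changes were -0.17 (adjusted p = 0.183) and -0.43 (0.00058). ATP5F1E, the epsilon subunit, had log2 changes of 0.22 and 0.01 (adjusted p = 0.337 and 0.975).

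The c ring is built of many copies of 1 peptide made from ATP5MC1, ATP5MC2 and ATP5MC3. ATP5MC1 had 60.5, 60.6 and 65.9 CPM in wild type cells with bleomycin, against 89.4, 76.5 and 71.8 CPM in control medium, with no overlap (log2 -0.35, SE 0.12, edgeR adjusted p = 0.0353). Its call was lost without any 1 wild type bleomycin library (0.0503 to 0.102) or wild type control replicate 1 (0.143) or 2 (0.0578). In knockout cells ATP5MC1 had 81.6, 74.6 and 70.6 CPM with bleomycin, against 81.03, 59.2 and 76.4 CPM in control medium (log2 0.07, adjusted p = 0.697; without replicate 2, -0.06, adjusted p = 0.597). ATP5MC2 had 108, 104 and 126 CPM in wild type cells with bleomycin, against 164, 146 and 149 CPM in control medium (log2 -0.44, SE 0.18, adjusted p = 0.0665). The 3 c ring genes were all called lower in wild type cells, and none of them in knockout cells, once knockout control replicate 2 was left out. In that fit 26.8% of all tested genes were called lower in wild type cells and 22.8% in knockout cells. With all libraries, ATP5MC3 changed alike in the genotypes, by log2 -0.24 in knockout and -0.23 in wild type cells, and was called in neither. The difference between the genotypes is tested with the interaction below.

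The peripheral stalk and the small membrane subunits gave no call with all libraries. ATP5PB, subunit b of the stalk, had 146, 168 and 145 CPM in knockout cells with bleomycin, against 103, 145 and 122 CPM in control medium, and 136, 144 and 155 CPM in wild type cells with bleomycin, against 136, 114 and 112 CPM in control medium. Its log2 change was above 0 in both, where those of ATP5F1A and ATP5F1B were below 0 (log2 0.31, SE 0.13, edgeR adjusted p = 0.0618 in knockout cells; log2 0.27, SE 0.13, adjusted p = 0.107 in wild type cells). With knockout control replicate 2 left out it rose in both (log2 0.44 and 0.26, adjusted p = 0.000959 and 0.0151). ATP5MF had 5.54 CPM in that library, beside 83.5 and 75.3 in the other knockout control libraries and 65.8, 63.4 and 50.2 in knockout cells with bleomycin. It was at log2 0.12 (SE 0.60) with the library and at -0.41 (SE 0.12, adjusted p = 0.00888) without it.

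**Figure D4:**
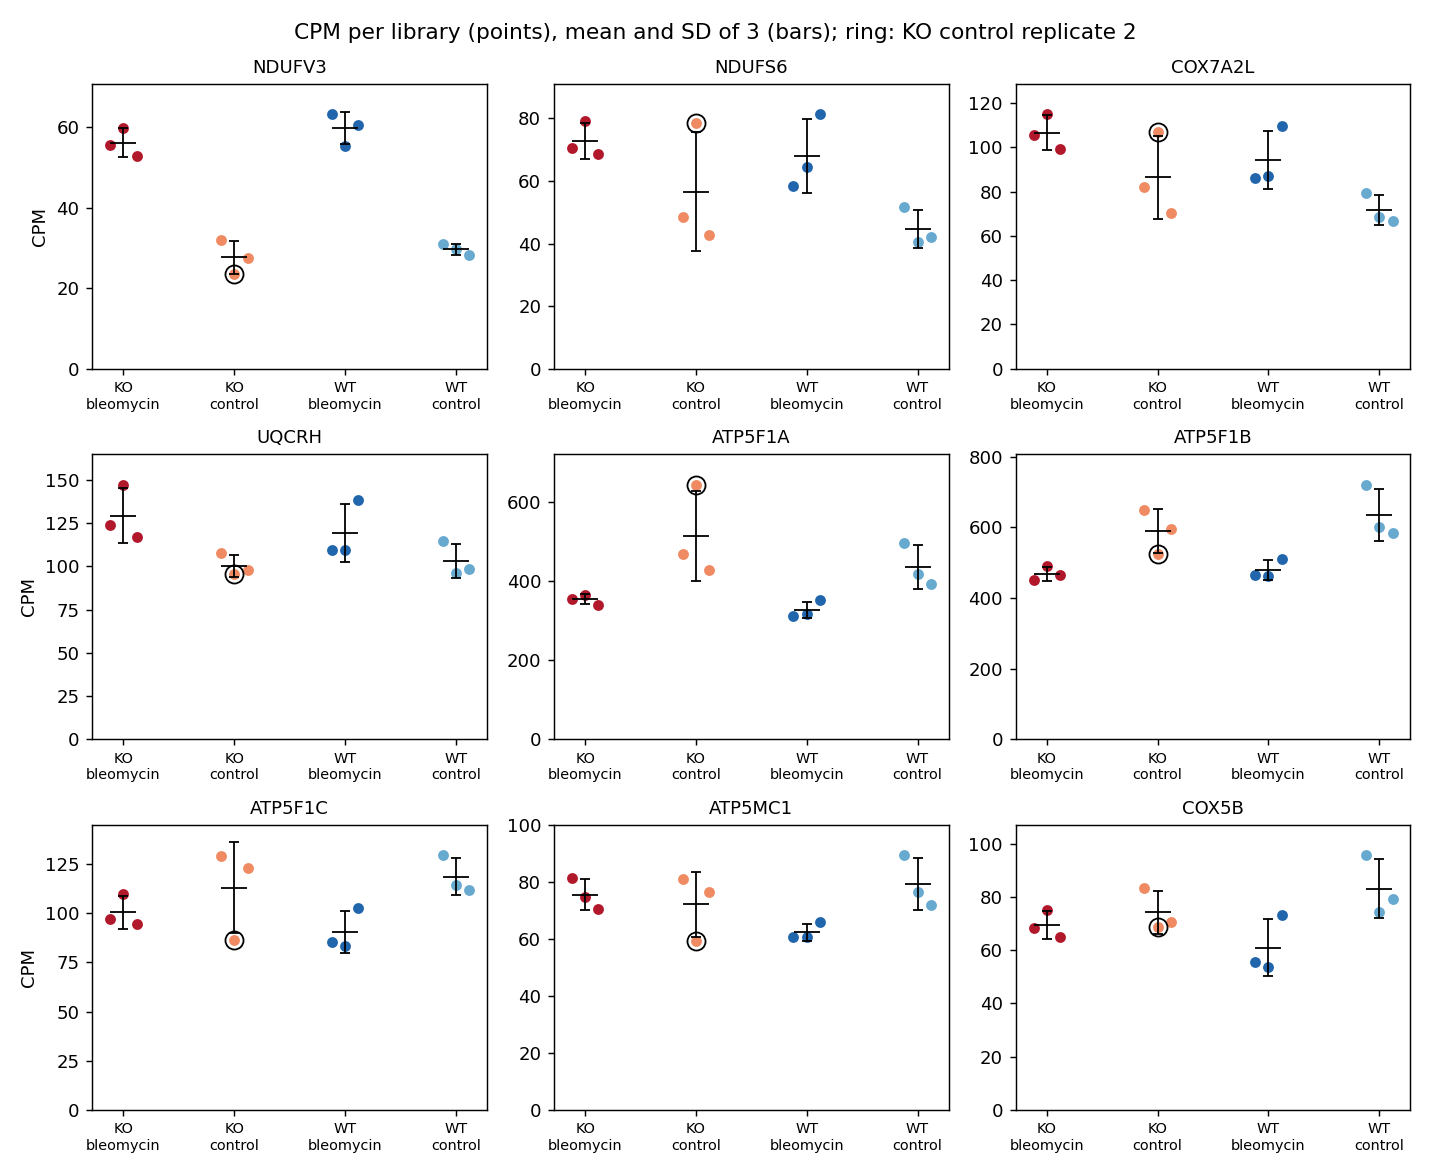
CPM of 9 genes in each library (points) with mean and SD (n = 3), from 0 on each axis, with knockout control replicate 2 ringed. NDUFV3 is 2.03-fold higher with bleomycin in knockout cells and 2.01-fold in wild type cells, ATP5F1A and ATP5F1B are lower in both, and in NDUFS6, COX7A2L, ATP5F1C and ATP5MC1 the ringed library lies among or beyond the knockout bleomycin libraries.

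Transcripts were also summed over each complex. The 18 ATP synthase genes summed to 1977 ± 119 CPM in knockout cells with bleomycin, against 2258 ± 110 CPM in control medium (SD, n = 3), a ratio of 0.875. In wild type cells they summed to 1829 ± 174 CPM with bleomycin, against 2222 ± 236 CPM in control medium, a ratio of 0.823. In both genotypes every bleomycin library lay below every control library. ATP5F1A and ATP5F1B, lower with bleomycin in both genotypes, had the highest CPM of the 18 genes, so the sums need not hold for the others. The median log2 change of the 17 tested ATP synthase genes was -0.05 in knockout and -0.23 in wild type cells. In knockout cells the median was -0.33 for the F1 head and central stalk. It was 0.06 for the c ring (-0.06 without knockout control replicate 2), 0.06 for the peripheral stalk and 0.12 for the small membrane subunits. In wild type cells these medians were -0.41, -0.35, 0.02 and -0.10. Complex III summed to 1139 ± 95.5 CPM in knockout cells with bleomycin, against 1021 ± 64.3 CPM in control medium, and to 1103 ± 111 CPM in wild type cells with bleomycin, against 999 ± 123 CPM in control medium (SD, n = 3). The ratio of bleomycin to control sums in knockout and wild type cells was 1.04 and 1.02 for complex I, 1.02 and 1.09 for complex II and 1.16 and 1.02 for complex IV. All 86 genes together summed to 1.01 and 0.972 times control, and ran from 5852 to 7175 CPM over the libraries.

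The subunits made from the mitochondrial chromosome took 35738 to 43851 CPM in 11 libraries and 2670 CPM in knockout control replicate 2, so the ratio of mitochondrial to nuclear subunit transcripts was 5.57 to 6.64 in those and 0.393 in that one. Of the 13 mitochondrial protein genes, 1 rose in knockout cells with bleomycin, MT-ATP8, which encodes a membrane subunit of the ATP synthase (log2 1.43, SE 0.44, edgeR adjusted p = 0.0195). Without knockout control replicate 2 its log2 change was 0.97 (adjusted p = 0.000271). In wild type cells 0 of 13 passed with all libraries. Of all tested genes, 22.5% rose and 20.7% fell in knockout cells, and 23.9% rose and 19.6% fell in wild type cells. Without knockout control replicate 2, 2 of the 13 rose and 0 fell in knockout cells, and 2 rose and 2 fell in wild type cells. The shares were then 25.6% higher and 22.8% lower in knockout cells, and 29.8% higher and 26.8% lower in wild type cells.

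**Figure D5:**
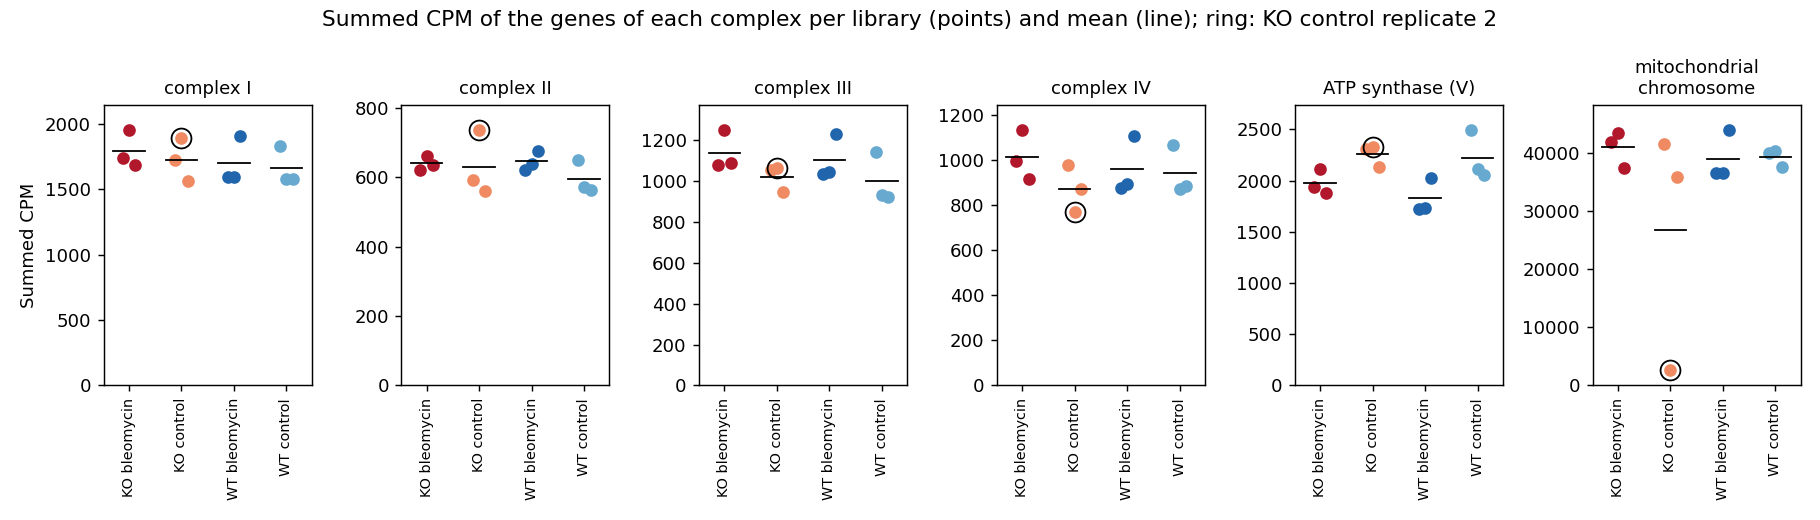
Summed CPM of the nuclear genes of each complex and of the 13 protein genes of the mitochondrial chromosome per library (points), with group means (lines), from 0 on each axis and with knockout control replicate 2 ringed. The ATP synthase sums, in which ATP5F1A and ATP5F1B weigh most, lie lower with bleomycin in both genotypes. The ringed library is at 2670 CPM for the mitochondrial chromosome.

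The second question was whether loss of ANT1 changed the respiratory genes. In control medium 0 of 81 differed between knockout and wild type cells, beside 0.168% of all tested genes (0.108% higher and 0.0599% lower). In bleomycin 0 of 81 differed, beside 0.0479% (0.00599% higher and 0.0419% lower). Both counts are from edgeR, DESeq2 also gave 0 and 0, and an unadjusted p under 0.05 was found for 2 genes in each (NDUFB9 and NDUFC2 in control medium, ATP5MC1 and ATP5MPL in bleomycin). NDUFB9 and NDUFC2 were among the genes in which knockout control replicate 2 stood high. Without that library 0 of 81 differed in either medium, beside 1.02% of all tested genes in control medium (0.674% higher and 0.343% lower) and 1.71% in bleomycin (0.924% higher and 0.785% lower), and the unadjusted counts were 0 and 8. The lowest adjusted p among the 81 was then 0.617 in control medium and, for ATP5MC2 in bleomycin, 0.0969.

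The intervals show which differences these data could still hold. The 95% interval of the log2 difference lay within 1 log2 unit of 0 for 68 of 81 genes in control medium and for 75 of 81 in bleomycin, and within 0.5 for 39 and 38. NDUFV3 had an interval of -0.35 to 0.14 in control medium and of -0.33 to 0.15 in bleomycin. ATP5F1B had -0.34 to 0.12 and -0.26 to 0.20, and SDHA had -0.14 to 0.37 and -0.28 to 0.24. Among abundant genes of complexes I and III, NDUFS5 had -0.39 to 0.19 and -0.11 to 0.47, and CYC1 had -0.13 to 0.42 and -0.27 to 0.27. The intervals of NDUFB7 passed 0.5 in both media, at -0.16 to 0.66 and -0.15 to 0.68, and that of UQCRQ in bleomycin, at -0.25 to 0.44 and -0.17 to 0.52. In control medium the median absolute log2 difference over the 81 genes was 0.16, and 0.04 without knockout control replicate 2, beside 0.18 and 0.12 over all tested genes.

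In bleomycin, 57 of the 81 genes had a log2 difference above 0, with a median of 0.09 beside 0.00 over all tested genes. These genes share the same libraries, so the 57 are not separate observations of the genotypes. Their median deviation per library, as in the deviations above, was 0.04, 0.19 and -0.02 log2 units in knockout cells with bleomycin. In wild type cells with bleomycin it was -0.12, -0.09 and 0.15. The c ring genes had differences of 0.28 (ATP5MC1, adjusted p = 0.714), 0.28 (ATP5MC2, 0.916) and 0.22 (ATP5MC3, 0.939, edgeR). Every knockout library lay above every wild type library for ATP5MC1 (81.6, 74.6 and 70.6 CPM against 60.5, 60.6 and 65.9 CPM) and for ATP5MC2 (137, 146 and 129 CPM against 108, 104 and 126 CPM). The groups did not overlap for 4 genes in all (also NDUFA9 and UQCR11), or 4.94% of the 81, beside 18.6% of all tested genes. In control medium they did not overlap for 0 of the 81, beside 12.2%.

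The interaction, the bleomycin change in knockout cells minus that in wild type cells, passed for 0 of 81 genes and for 0.0% of all tested genes (edgeR; DESeq2 gave 0 of 81, and an unadjusted p under 0.05 was found for NDUFA3 and ATP5MC1). For ATP5MC1 it was log2 0.41 (SE 0.17, adjusted p = 0.899) and for ATP5MC2 0.49 (SE 0.25, adjusted p = 0.899). With knockout control replicate 2 left out these were 0.29 (adjusted p = 0.59) and 0.26 (0.638). ATP5MC3, also of the c ring, had an interaction of log2 -0.01 with all libraries. NDUFA3 had the largest value, 0.81 (SE 0.35, adjusted p = 0.899), and its knockout control replicate 2 had 8.40 CPM beside 20.4 and 16.3. For NDUFV3 the interaction was 0.01 with a 95% interval of -0.33 to 0.35. The interval lay within 1 log2 unit of 0 for 58 of 81 genes. Without knockout control replicate 2 the interaction passed for 0 of 81 genes and 0.0523% of all tested genes.

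Genes that assemble, regulate and feed the complexes were counted in lists of known members. The counts of each list below stand beside 43.2% of all tested genes called in knockout cells and 43.5% in wild type cells, and beside 48.4% and 56.6% where knockout control replicate 2 is left out. By direction, 22.5% rose and 20.7% fell in knockout cells, and 23.9% rose and 19.6% fell in wild type cells. With that library left out, 25.6% rose and 22.8% fell in knockout cells, and 29.8% rose and 26.8% fell in wild type cells. Among assembly factors with bleomycin, 2 rose and 1 fell of 17 for complex I in knockout cells and 4 rose and 2 fell in wild type cells, or 3 and 6 of 17. For complex III 1 rose and 2 fell of 6 in knockout cells, and 1 rose and 1 fell in wild type cells. UQCC1, which helps make cytochrome b of complex III, rose in both genotypes (log2 0.67 in knockout cells, 0.86 in wild type cells, edgeR adjusted p = 5.76e-05 and 5.33e-06). LYRM7, an assembly factor for the Rieske protein of complex III, fell in both (log2 -0.53 and -0.57, edgeR adjusted p = 0.000741 and 0.000347). The complex I factor ECSIT also fell in both (log2 -0.65 and -0.76). For complex II 1 and 2 of 4 factors rose, for complex IV 1 and 2 of 23 rose, and for the ATP synthase 0 rose of 5, with 1 (ATPAF2) lower in knockout cells and 0 in wild type cells. With knockout control replicate 2 left out, ATPAF2 did not pass (adjusted p = 0.13), 7 of 23 complex IV factors rose in each genotype, and 5 and 7 of 17 complex I factors rose.

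Among 11 tested regulators of respiratory gene expression, 0 rose and 5 fell in knockout cells and 0 rose and 4 fell in wild type cells. Of all tested genes, 22.5% rose and 20.7% fell in knockout cells, and 23.9% rose and 19.6% fell in wild type cells. NRF1 fell in both (log2 -0.50, adjusted p = 0.00461 in knockout cells; -0.47, adjusted p = 0.00669 in wild type cells, edgeR). YY1 averaged 138 ± 7.46 CPM in knockout cells with bleomycin, against 217 ± 39.9 CPM in control medium (SD, n = 3), and 137 ± 2.08 CPM in wild type cells with bleomycin, against 198 ± 5.87 CPM in control medium, and fell in both. GABPA fell in knockout cells (log2 -0.34), SP1 fell in wild type cells (log2 -0.49), and HCFC1, a coactivator, fell in both (log2 -0.64 and -0.76), although in knockout cells it did not pass without knockout control replicate 2 (adjusted p = 0.212). PPARGC1A, the coactivator PGC-1 alpha, fell in knockout cells, at 1.13 ± 0.273 CPM with bleomycin, against 2.29 ± 0.733 CPM in control medium (SD, n = 3). Without knockout control replicate 2, 1 and 2 of the 11 rose and 5 and 4 fell in knockout and wild type cells.

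In the list of mitochondrial DNA expression and maintenance, 4 rose and 5 fell of 16 in knockout cells, and 3 rose and 2 fell in wild type cells, counts that lie around the 43.2% and 43.5% of all tested genes. MGME1, an exonuclease for mitochondrial DNA ends, averaged 186 ± 10.3 CPM in knockout cells with bleomycin, against 85.6 ± 13.01 CPM in control medium, and 204 ± 4.01 CPM in wild type cells with bleomycin, against 88.9 ± 2.03 CPM in control medium (2.18-fold and 2.30-fold higher). POLG, the mitochondrial DNA polymerase, fell in both (log2 -0.75 and -0.62). In the tricarboxylic acid cycle and pyruvate dehydrogenase list, 1 rose and 2 fell of 17 in knockout cells, and 1 rose and 3 fell in wild type cells, beside the same 43.2% and 43.5%. PDHB, the E1 beta subunit of pyruvate dehydrogenase, averaged 36.3 ± 2.26 CPM in knockout cells with bleomycin, against 77.0 ± 5.96 CPM in control medium, and 36.2 ± 2.52 CPM in wild type cells with bleomycin, against 78.1 ± 7.59 CPM in control medium (2.12-fold and 2.16-fold lower). With knockout control replicate 2 left out, 5 of the 17 fell in each genotype, and in wild type cells 6 of the 16 mitochondrial DNA genes fell.

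Of 15 genes for ubiquinone synthesis, cytochrome c, electron transfer flavoproteins and the dehydrogenases GPD2 and DHODH, 4 rose and 4 fell in each genotype, near the 43.2% and 43.5% called over all tested genes, and these were the same 8 genes. CYCS, cytochrome c, COQ4, COQ6 and ETFB rose, while COQ2, COQ3, COQ7 and ETFDH fell. Of 7 tested genes tied to low oxygen, 2 rose and 3 fell in knockout cells and 3 rose and 3 fell in wild type cells, again beside 43.2% and 43.5%. PDK1, which shuts off pyruvate dehydrogenase, fell by 1.17 and 1.51 on the log2 scale, and BNIP3, a mitophagy receptor, by 1.27 and 1.66. NDUFA4L2, a relative of NDUFA4, rose (log2 2.05, adjusted p = 0.00283 in knockout cells; 1.43, adjusted p = 0.0148 in wild type cells), at means of 0.931 and 0.815 CPM with bleomycin, against 0.216 and 0.294 CPM in control medium, which is near what 3 counts make. No gene of these lists was called between genotypes or in the interaction.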

How the data were processed

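Poly(A) RNA of 12 libraries (4 groups of 3) was sequenced. The submitters' processing notes name HISAT2 2.0.5 and featureCounts 1.5.0-p3. Build and strand setting are not given in the sources used here. Positions and lengths of all 86 genes equal GENCODE 29 on GRCh38. The deposited counts are raw whole counts per gene made by the authors, 15.8 to 21.9 megacounts per library. The deposited FPKM values equal the authors' counts divided by gene length and a library factor of 0.963 to 1.05 times the total.

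From the counts, filterByExpr kept 16702 genes. All 12 libraries entered 1 fit with TMM scaling and edgeR 4.0.16's quasi-likelihood test, two-sided, with Benjamini-Hochberg adjustment over all tested genes at 0.05, and contrasts of the 4 groups. The SE was taken from the log2 fold change and its F statistic (size over root F). The procedure was tested on simulated data. CPM used library totals scaled by the TMM factors, and only the zero-count limits used unscaled totals. Intervals for counts and zero-count limits cover counting error only, and p-values measure the spread between these libraries.

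Genes were named by a rule: per comparison and complex, up to 4 called members a direction with the smallest adjusted p (else the 2 of highest mean FPKM), the SDH genes and isoform pairs, and per list up to 4 called genes. 1 called gene is not reported here by name or in the figures. Other named genes were picked after their values were seen. Members and lists were chosen with earlier results of these data known. Alternatives were DESeq2 1.42.0, other scaling factors, filters, groups, a length offset, a replicate block, limma 3.58.1 on FPKM and leaving out each library (R 4.3.3).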

Additional observations from a re-analysis of the deposited data

How the results depend on the processing

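The counts of respiratory genes called with bleomycin depended on the processing, and no called gene reversed its direction under any alternative run. In knockout cells the 7 rising genes became 12 with no filter on low counts, 3 when only the groups compared were fitted and 3 with a length offset, and the 4 falling genes became 1 with only the groups compared. In wild type cells the 4 rising genes became 9 and the 5 falling ones 8 with only the groups compared, the falling ones became 3 with upper-quartile factors, and the rising ones became 2 with limma on log2(FPKM + 1) at a mean FPKM of at least 1. Leaving out each library in turn gave 1 to 12 rising and 1 to 7 falling in knockout cells, and 1 to 9 rising and 1 to 11 falling in wild type cells, the highest counts except the 7 coming without knockout control replicate 2. The cause was not tested. Between genotypes and in the interaction, 0 genes passed under each alternative run.

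Replicate numbers did not pair the libraries: of 18 same-numbered pairs, r ran from -0.128 to 0.109 and 1 was over 0.1. With the number as a replicate block, 4 rose and 2 fell in knockout cells, and 3 rose and 5 fell in wild type cells. With the block and a length offset, 1 rose and 5 fell in knockout cells, and 1 rose and 4 fell in wild type cells. The median SE of 0.17 on the log2 scale, with 3 libraries a group, limits how small a change could pass.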
